A study of Mus musculus with 24 samples.

Results

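Cytochrome P450 enzymes are heme proteins that insert an oxygen atom into drugs, toxins, steroids, fatty acids, retinoids and vitamin D. Those of families 1 to 3 mostly handle foreign compounds and steroids in the hepatocyte, where ligand-activated receptors such as the constitutive androstane receptor (Nr1i3) and the aryl hydrocarbon receptor (Ahr) drive their transcription. Family 4 mainly oxidizes fatty acids, and most other families carry out single steps of hormone, vitamin or sterol metabolism. In mouse liver many P450 genes differ between males and females, and brain holds a smaller set, among them the neuronal cholesterol hydroxylase Cyp46a1.

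The genes described here are the 59 genes, out of 13840 named on the array, whose symbol has the P450 form of Cyp, a family number, a subfamily letter and a gene number. The bile acid, sterol and PPARalpha-responsive genes Cyp4a10, Cyp4a14, Cyp7a1, Cyp8b1, Cyp27a1 and Cyp51 were left out. Family 1 has 3 members, family 2 has 31, family 3 has 5, family 4 has 9, and the other families have 11. A gene with more than 1 probe is given by its brightest probe, and the probes of close relatives, as in the Cyp2a, Cyp2c, Cyp2d, Cyp2j, Cyp3a and Cyp4f subfamilies, can share signal, so values within these subfamilies are uncertain as to the single gene.

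RNA of liver and of whole brain was measured on one-colour arrays in male mice 12 weeks old, with 12 arrays per tissue. Each tissue had 4 groups of 3 arrays: Acads-/- mice on HF diet, Acads-/- mice on LF diet, Acads+/+ mice on HF diet and Acads+/+ mice on LF diet, each diet given for 2 days. The Acads-/- mice were of the strain BALB/cByJ, which lacks short-chain acyl-CoA dehydrogenase, and the Acads+/+ mice were BALB/cByKZ, so genotype and strain cannot be told apart. For the LF liver samples 1 label field names a high-fat diet while their titles and treatment field give LF, and the titles were followed. Values below are log2 of the quantile-normalized signal of a probe, and arrays are named by tissue, group and the number in their column, most of which recur in both tissues and whose meaning the labels do not give.

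Acads itself, in which BALB/cByJ mice carry a spontaneous deletion, was checked first. In liver it had 8.19, 7.54 and 10.03 in Acads-/- HF mice, 7.96, 8.23 and 9.69 in Acads-/- LF mice, 9.75, 9.67 and 11.39 in Acads+/+ HF mice and 10.50, 10.46 and 8.76 in Acads+/+ LF mice, and the genotypes overlapped. In brain it was 7.90 to 10.02 on the 6 Acads-/- arrays and 9.87 to 11.92 on the 6 Acads+/+ arrays. Of the 5 hepatocyte markers with a probe, Ttr (19.61 to 20.48) and Fgb (17.41 to 18.17) had a narrow range over the 12 liver arrays. Alb (18.45 to 20.12) varied more, and Apoa1 (12.58 to 17.96) and Tat (9.08 to 13.09) varied most. In brain the 3 Acads+/+ HF arrays stood apart from the other 9, at -107.8 to -46.3 on a first principal component that held 49.2% of the variance, against 18.6 to 33.8. Replicates spread more in liver than in brain, with median residual SDs of 0.52 and 0.27.

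Liver and brain differed widely in which P450 genes gave signal. Of the 59 members, 39 lay above the median of mean signal in liver and 17 did in brain, with 14 in both tissues and 17 in neither. By family, 2 of 3, 21 of 31, 4 of 5, 5 of 9 and 7 of 11 passed in liver for families 1, 2, 3, 4 and the others, against 0, 9, 1, 4 and 3 in brain. The 1 gene of family 3 in brain, Cyp3a44, passed only through arrays 17873 and 18017 (12.56 and 13.40), which are taken up below with Alb. In family 2, Cyp2c23 also passed in brain only with these arrays counted (10.97 and 11.58). Of the members, 66.1% passed in liver and 28.8% in brain, against 59.2% and 63.1% of all annotated genes. Tests were run on genes above this filter. A member counts as called where its p-value, adjusted by Benjamini-Hochberg over all probes tested, is under 0.05 and the difference reaches 1.6-fold.

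The signal percentile of a probe among all probes of its array was used to set the tissues side by side, as a description. Every liver array ranked above every brain array for 27 members, 45.8% of them, against 16.2% of all annotated genes. Every brain array ranked above every liver array for 3 members, 5.08% against 16.5%. These 3 were Cyp46a1, Cyp2j9 and Cyp2j11, and the ranges of the other 29 members overlapped. In bulk samples such as these, fewer cells of a type and less RNA per cell cannot be told apart, which holds for each difference given here.

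**Figure D1:**
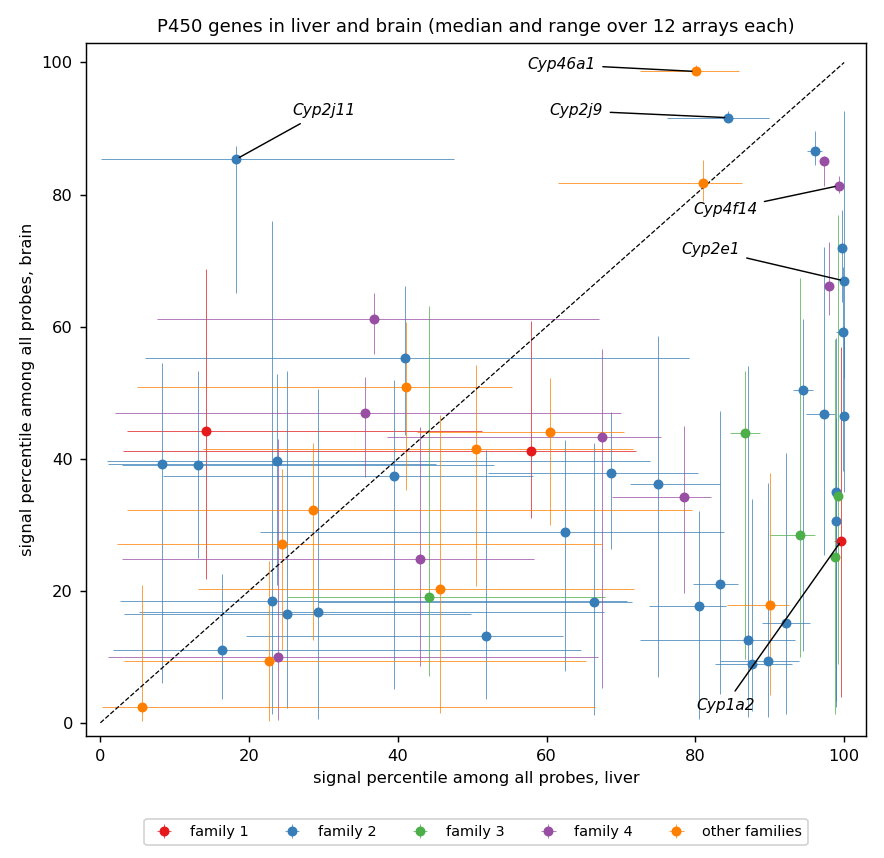
Signal percentile of the 59 P450 genes among all probes of an array, in liver (x axis) and brain (y axis), as the median over 12 arrays with lines to the lowest and highest array, coloured by family. 27 members lie to the right with no overlap between the tissues, and Cyp46a1, Cyp2j9 and Cyp2j11 lie above the dashed line of equal percentiles.

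Signals of different probes have no common scale, so each gene is described by its own range over the liver arrays. Cyp2e1, which oxidizes ethanol, acetone and small solvents, was 20.32 to 20.72 over the 12 liver arrays, and Cyp2d9, a steroid hydroxylase that is male-biased in mouse liver, was 20.32 to 20.78. Neither was called in any liver comparison. Cyp2c29, a target of the constitutive androstane receptor, was 18.59 to 19.89, and Cyp4f14, which hydroxylates leukotrienes and long-chain fatty acids, was 17.92 to 18.63. The pair Cyp26a1 and Cyp26b1, which break down retinoic acid, spanned 12.13 to 14.23 and 9.20 to 12.57 in liver. Cyp7b1, an oxysterol hydroxylase that is male-biased in mouse liver, was at the lowest value the processing allows on 6 of 12 liver arrays, and the adrenal steroid enzymes Cyp11a1, Cyp17a1 and Cyp21a1 lay below the filter in liver.

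On HF diet, Cyp1a2 and Cyp2a4 were higher in liver than on LF diet over both genotypes, and Cyp2f2 and Cyp2c54 had differences of like size that did not pass the test. Cyp1a2, the hepatic enzyme of caffeine and aromatic amine oxidation and a target of the aryl hydrocarbon receptor, had 19.34, 19.24 and 19.23 in Acads-/- HF mice, against 17.87, 17.68 and 18.17 in Acads-/- LF mice. In Acads+/+ mice it had 19.50, 19.45 and 19.82 on HF diet, against 18.12, 18.77 and 18.71 on LF diet. All 6 HF arrays were above all 6 LF arrays. Over both genotypes Cyp1a2 was 2.31-fold higher on HF diet (log2 1.21, standard error 0.16, n = 6 each, adjusted p = 0.0156 from limma).

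Cyp2a4, a steroid hydroxylase that is female-biased in mouse liver, had 17.76, 17.44 and 16.46 in Acads-/- HF mice, against 16.41, 15.07 and 15.90 in Acads-/- LF mice. In Acads+/+ mice it had 17.32, 17.11 and 17.62 on HF diet, against 15.24, 15.65 and 15.83 on LF diet. The diets did not overlap, although the lowest HF array (16.46) and the highest LF array (16.41), both of Acads-/- mice, nearly met. Over both genotypes the gene was 3.03-fold higher on HF diet (log2 1.6, standard error 0.28, adjusted p = 0.0470 from limma). This call is close to the threshold and was lost when any 1 of 10 of the 12 arrays was left out, with adjusted p up to 0.121, and that of Cyp1a2 was lost without 1 array, an Acads-/- LF one numbered 17981 (adjusted p = 0.0529).

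Cyp2f2, which oxidizes naphthalene and is a gene of periportal hepatocytes, had 20.07, 20.43 and 20.78 in Acads-/- HF mice, against 18.05, 19.92 and 18.02 in Acads-/- LF mice. In Acads+/+ mice it had 20.03, 19.52 and 20.64 on HF diet, against 18.21, 18.31 and 17.90 on LF diet. Of the LF arrays, array 17981 of the Acads-/- group alone lay within the HF range. The difference over both genotypes, 1.84 on the log2 scale (standard error 0.35, adjusted p = 0.0573 from limma), did not pass, and without array 17981 Cyp2f2 was the P450 gene called in place of the other pair.

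Cyp2c54, an epoxygenase of polyunsaturated fatty acids, had 14.69, 14.07 and 13.60 in Acads-/- HF mice, against 11.93, 13.29 and 12.57 in Acads-/- LF mice. In Acads+/+ mice it had 13.79, 13.74 and 14.14 on HF diet, against 13.04, 12.83 and 12.87 on LF diet. All 6 HF arrays were again above all 6 LF arrays, with a log2 difference of 1.25 (standard error 0.25) that did not pass (adjusted p = 0.0760 from limma).

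**Figure D2:**
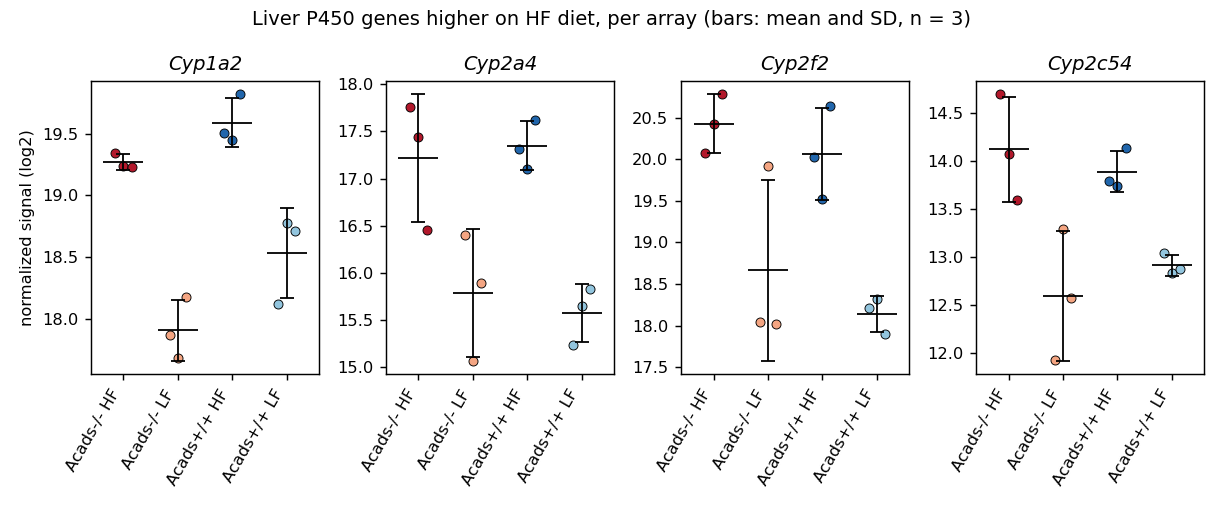
Log2 normalized signal of Cyp1a2, Cyp2a4, Cyp2f2 and Cyp2c54 on each liver array (points, 3 per group) with the group mean and SD. In each genotype the 3 HF arrays lie above the 3 LF arrays for all 4 genes, and 1 Acads-/- LF array of Cyp2f2 (19.92) lies within the HF range of both genotypes together.

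In all, 2 of 39 P450 genes tested (5.13%) were called between HF and LF diet over both genotypes, against 0.473% of all 16506 probes. At an unadjusted p under 0.05 with the same fold change there were 6 of 39 (15.4%), all higher on HF diet, against 8.04% of all probes, and 3 of 39 (7.69%) had no overlap between the 6 HF and the 6 LF arrays, against 1.13%. The other 2 of these 6 were Cyp2a12, a steroid hydroxylase of liver (log2 1.22, adjusted p = 0.317), and Cyp39a1, which hydroxylates oxysterols on the way to bile acids (log2 0.69, adjusted p = 0.205). The median over the 39 members was 0.07, against -0.01 over all probes tested. The signal scale mattered to the calls: with arrays scaled to a common median no P450 gene was called (Cyp1a2 0.91, adjusted p = 0.0521), and the median of all probes then moved by -0.21.

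Cyp1a2, Cyp2a4, Cyp2c54 and Cyp2f2 passed by unadjusted p within each genotype, and none was called there. In Acads-/- mice 0 of 39 members were called between the diets, against 0.109% of all probes. Cyp1a2 came nearest there (log2 1.36, standard error 0.23, adjusted p = 0.0777 from limma). By unadjusted p 7 of 39 passed (17.9%, against 7.40% of all probes), and 4 of 39 had groups that did not overlap with a fold change of at least 1.6 (10.3%, against 7.66%). The 7 include Cyp2d22, which lay above the signal filter only through 2 Acads-/- HF arrays (10.70 and 11.13), the group in which it was high. In Acads+/+ mice 0 of 39 were called, against 0% of all probes, 6 of 39 passed by unadjusted p (15.4%, against 8.70%) and 6 of 39 had groups that did not overlap (15.4%, against 9.77%). The methods' t-test with adjustment called 0 in each genotype.

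The log2 differences between HF and LF diet in Acads-/- and in Acads+/+ mice were 1.36 and 1.05 for Cyp1a2, 1.43 and 1.77 for Cyp2a4, 1.77 and 1.92 for Cyp2f2, and 1.52 and 0.97 for Cyp2c54. No test found these pairs to differ (adjusted p of the interaction at least 0.914). Cyp39a1 had 0.33 in Acads-/- mice and 1.05 in Acads+/+ mice (9.55, 9.94 and 9.32 on HF diet, against 8.35, 8.91 and 8.38 on LF diet). Cyp24a1, which inactivates vitamin D, went the other way in Acads+/+ mice, with 8.03, 7.60 and 8.17 on HF diet, against 10.09, 8.55 and 9.28 on LF diet (log2 -1.37, adjusted p = 0.411). It lay above the signal filter only through these LF arrays, and the unadjusted and non-overlap counts in Acads+/+ mice hold it.

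**Figure D3:**
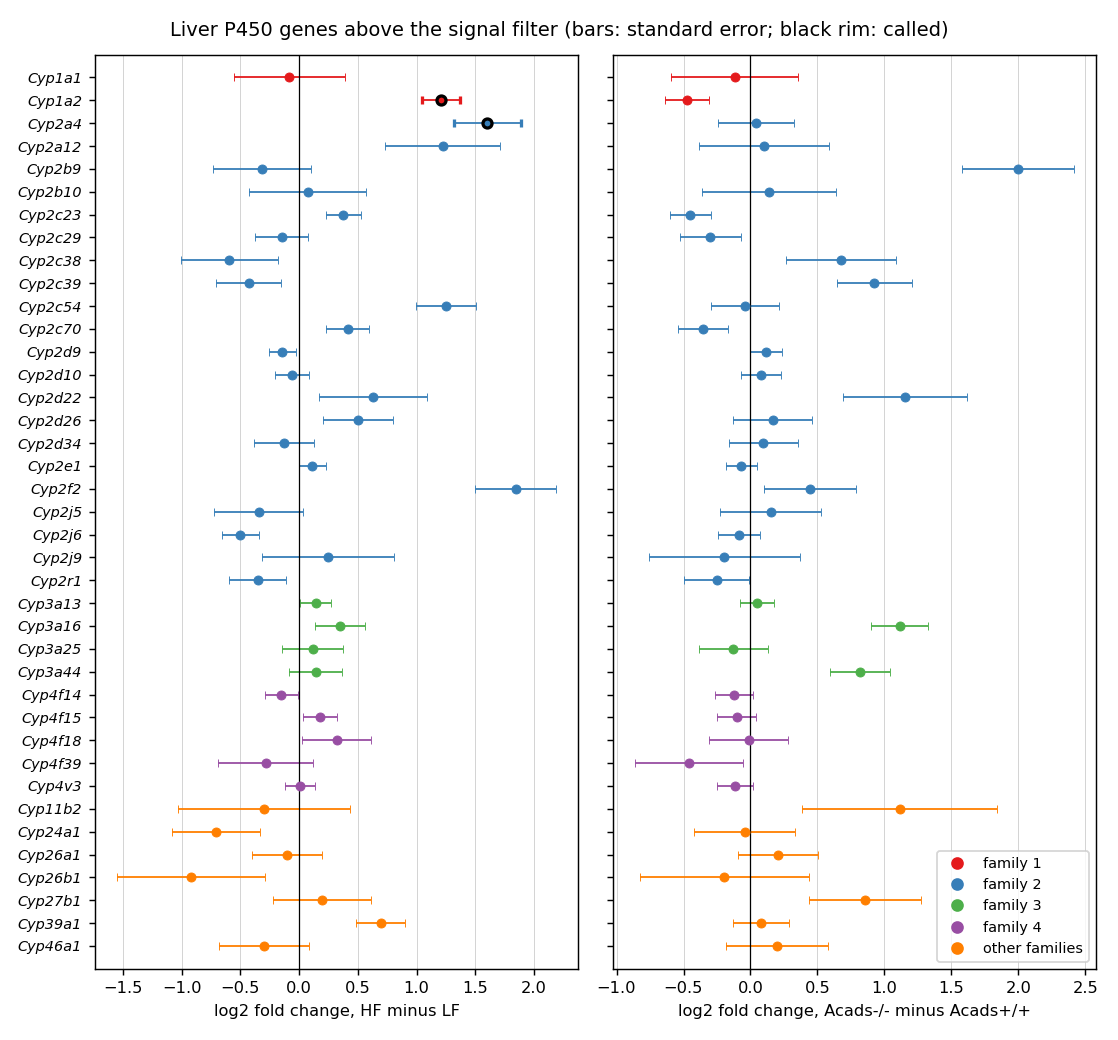
Log2 fold change of the 39 P450 genes above the signal filter in liver, HF minus LF diet over both genotypes (left) and Acads-/- minus Acads+/+ mice over both diets (right), with standard errors, coloured by family. The 2 called genes, Cyp1a2 and Cyp2a4, have a black rim in the left panel, and no gene has one in the right panel.

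The promoters of 3 of these genes are shown because the genes lie in separate subfamilies and had a like difference between the diets. No promoter sequence was available for Cyp2c54. The stretches are the 250 bases before the transcript start that the promoter table uses, from RefSeq on GRCm38.p6, in the direction of transcription: chr9:57683656-57683905 on the minus strand for Cyp1a2, chr7:26306942-26307191 on the plus strand for Cyp2a4 and chr7:27119705-27119954 on the plus strand for Cyp2f2. Capitals mark matches, on either strand, to any of 5 motifs. One is TATAAA, the TATA box. Another is GCGTG, which forms the core of the AHR-ARNT site. The remaining ones are TTCNNNGAA (STAT site), CAAAGTCCA (HNF4 site) and TTANNTAA (similar to the site of Dbp and Tef), where N is any base.
Cyp1a2: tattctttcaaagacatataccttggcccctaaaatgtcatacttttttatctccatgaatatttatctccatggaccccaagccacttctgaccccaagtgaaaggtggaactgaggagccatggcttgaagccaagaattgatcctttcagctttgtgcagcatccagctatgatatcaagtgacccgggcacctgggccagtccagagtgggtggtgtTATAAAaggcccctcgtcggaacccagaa
Cyp2a4: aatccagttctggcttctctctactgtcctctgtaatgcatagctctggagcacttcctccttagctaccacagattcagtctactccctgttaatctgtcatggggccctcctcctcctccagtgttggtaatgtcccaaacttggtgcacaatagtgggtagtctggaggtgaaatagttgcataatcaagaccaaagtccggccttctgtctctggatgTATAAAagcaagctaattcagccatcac
Cyp2f2: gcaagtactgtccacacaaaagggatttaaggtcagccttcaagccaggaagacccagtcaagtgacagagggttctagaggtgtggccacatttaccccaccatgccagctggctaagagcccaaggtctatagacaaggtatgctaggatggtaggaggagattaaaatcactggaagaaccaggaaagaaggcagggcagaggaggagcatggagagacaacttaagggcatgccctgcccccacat

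Cyp1a2 and Cyp2a4 each hold a TATA box, which starts 29 and 28 bases before that start, and Cyp2f2 holds none of the 5 motifs. The letters of the TATA box, at any position, were in 12.4% of the 32851 promoters of this length and in 17 of the 45 members with a promoter in the table. The AHR-ARNT core was in 28.2% of all and in 10 of the 45, among them Cyp1a1 and Cyp1b1 but not Cyp1a2. The STAT site was in 7.02% and in 3 of the 45, the HNF4 site in 0.384% and in 3 of the 45, and the Dbp and Tef type of site in 5.43% and in 6 of the 45.

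Outside these genes no P450 gene was called for diet in liver. In family 3, the 4 genes tested had log2 differences of 0.11 to 0.34 over both genotypes, and in family 4 the 5 tested had -0.29 to 0.32. Of the 2 family 1 genes tested, Cyp1a1, another target of the aryl hydrocarbon receptor, was near background at 7.15 to 10.11 with a difference of -0.08. Cyp1b1, a steroid and hydrocarbon oxidizing enzyme found mainly outside the liver, was below the filter. Targets of the constitutive androstane and pregnane X receptors, Cyp2b10, Cyp2c29 and Cyp3a13, had 0.07, -0.15 and 0.14. Among the vitamin D genes, Cyp2r1 and Cyp27b1, which activate the vitamin, had -0.35 and 0.19, and among the retinoic acid genes Cyp26a1 had -0.11 and Cyp26b1 -0.92 (adjusted p = 0.565). Further members kept a narrow range over the 12 liver arrays, such as Cyp2d10 (17.59 to 18.27), Cyp4f15 (16.18 to 16.81) and Cyp4v3 (16.53 to 17.22), while Cyp3a25 spanned 17.09 to 18.44 and Cyp2c70 17.29 to 18.56. The members below the filter in liver, among them Cyp2c37, Cyp2c55, Cyp2s1, Cyp4b1 and Cyp4x1, lay between 7.15 and 10.33.

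Genes that control or serve the P450 enzymes were read beside them. Of 15 regulators tested in liver, 0 were called for diet over both genotypes, against 0.473% of all probes, and 4 passed by unadjusted p, all higher on HF diet, against 8.04%. Dbp, a clock-controlled factor that activates P450 genes, was 14.32 to 15.95 on the 6 HF arrays and 11.44 to 14.76 on the 6 LF arrays (log2 2.81, adjusted p = 0.0573). Its relative Tef was 13.76 to 14.58 on HF diet and 12.78 to 13.86 on LF diet (log2 1.20, adjusted p = 0.0608), and Nr1i3 was 15.28 to 16.31 on HF diet and 14.18 to 15.09 on LF diet (log2 1.09, adjusted p = 0.0768). The fourth was Cebpa (log2 0.73, adjusted p = 0.322). The diets overlapped for Dbp and Tef and did not for Nr1i3, and the part of these genes in the P450 differences was not tested. Of 7 genes for electron partners and heme supply, 0 were called and 0 passed by unadjusted p. Of 25 conjugating enzymes tested, 1 was called, against 0.473% of all probes: Gstp3, a glutathione transferase, was lower on HF diet (14.30 to 15.13, against 15.32 to 16.32 on LF diet, log2 -1.07, adjusted p = 0.0249).

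Marker lists of 11 cell types or tissues were summed on each liver array, and none separated the 6 HF from the 6 LF arrays. The pericentral hepatocyte list (5 of 5 genes with a probe) summed to 535765 to 750342 on HF diet and 488117 to 672772 on LF diet. The periportal list, with 2 of 5 genes with a probe, summed to 2047.02 to 5976.6 on HF diet and 2209.43 to 3367.53 on LF diet. The other lists overlapped likewise. Within Acads+/+ mice 1 list did separate the diets: the pancreatic acinar sum (3 of 5 genes with a probe) was 1718.55 to 2140.95 on HF diet and 690.651 to 1216.63 on LF diet. Of its 3 genes 1 lay above the signal filter, and only Cela2a separated (9.97 to 10.58 on HF diet, against 7.15 to 9.74 on LF diet). Cpa1 and Amy2a5 overlapped near background. The part of cell types in the diet differences was not tested.

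Between genotypes no liver P450 gene was called, and the 3 lowest unadjusted p-values over both diets were those of Cyp3a16, Cyp2b9 and Cyp3a44, which are female-biased in mouse liver. Cyp3a16, a steroid and drug hydroxylase, had 15.04, 15.70 and 15.35 in Acads-/- HF mice, against 14.47, 14.35 and 14.31 in Acads+/+ HF mice. On LF diet it had 14.87, 15.23 and 15.33 in Acads-/- mice, against 14.59, 13.63 and 13.50 in Acads+/+ mice. All 6 Acads-/- arrays were above all 6 Acads+/+ arrays. The difference over both diets was 1.11 on the log2 scale (2.16-fold, standard error 0.21), with an adjusted p of 0.484 from limma and an unadjusted p of 0.000365.

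Cyp2b9, a steroid hydroxylase, had 10.28, 10.51 and 9.20 in Acads-/- HF mice, against 7.98, 8.12 and 9.33 in Acads+/+ HF mice. On LF diet it had 10.19, 10.15 and 12.04 in Acads-/- mice, against 7.77, 8.89 and 8.28 in Acads+/+ mice. The genotypes were apart on LF diet and met on HF diet, where 1 Acads+/+ array (9.33) lay above the lowest Acads-/- array (9.20). Over both diets the difference was 2.00 (standard error 0.42, adjusted p = 0.534). The Acads+/+ mean was 8.40, below the median of a liver array (8.62), and Cyp2b9 lay above the signal filter only through its Acads-/- arrays.

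Cyp3a44, the close relative of Cyp3a16, had 18.49, 19.27 and 18.69 in Acads-/- HF mice, against 17.96, 18.04 and 18.06 in Acads+/+ HF mice, and 19.11, 18.20 and 18.79 in Acads-/- LF mice, against 18.42, 17.52 and 17.64 in Acads+/+ LF mice. The groups were apart on HF diet and overlapped on LF diet, with 0.82 over both diets (standard error 0.23, adjusted p = 0.793). Cyp2c39, a retinoic acid hydroxylase in mouse, had 14.93, 15.04 and 13.56 in Acads-/- HF mice, against 13.78, 13.46 and 13.23 in Acads+/+ HF mice. On LF diet it had 14.78, 14.42 and 15.32 in Acads-/- mice, against 14.30, 13.93 and 13.82 in Acads+/+ mice, without overlap on LF diet, and the difference over both diets was 0.92 (standard error 0.28, adjusted p = 0.805).

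**Figure D4:**
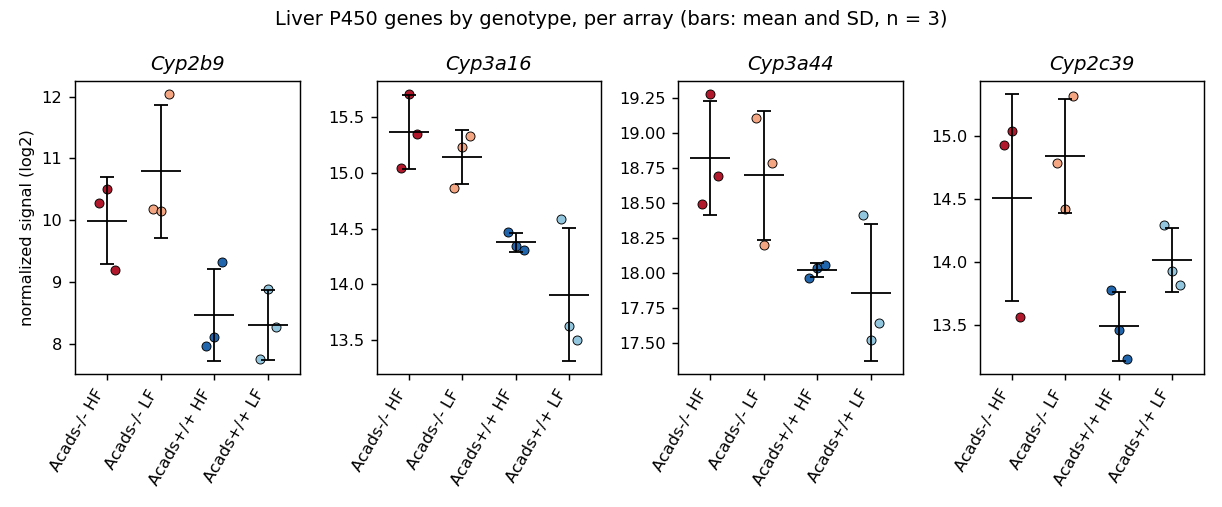
Log2 normalized signal of Cyp2b9, Cyp3a16, Cyp3a44 and Cyp2c39 on each liver array (points, 3 per group) with the group mean and SD. For Cyp3a16 all 6 Acads-/- arrays lie above all 6 Acads+/+ arrays, and for the other 3 genes single arrays of the genotypes overlap.

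Over both diets 0 of 39 P450 genes were called between the genotypes, against 0.00606% of all probes. By unadjusted p 5 of 39 passed (12.8%), all higher in Acads-/- mice, against 2.81% of all probes, and 1 of 39 (2.56%, Cyp3a16) did not overlap, against 0.133%. Besides Cyp2b9, Cyp3a16, Cyp3a44 and Cyp2c39 this was Cyp2d22 (log2 1.15, adjusted p = 0.972), whose difference came from 2 Acads-/- HF arrays (10.70 and 11.13) while the other 10 liver arrays were at 7.20 to 8.70, so that it lay above the signal filter only through the group in which it was high. On HF diet 0 of 39 were called, against 0% of all probes, 5 passed by unadjusted p (12.8%, against 5.67%) and 3 did not overlap (7.69%, against 5.54%). On LF diet 0 of 39 were called, against 0%, 3 passed by unadjusted p (7.69%, against 3.29%) and 3 did not overlap (7.69%, against 4.25%). The methods' t-test with adjustment called 0 on either diet. The third gene without overlap on HF diet, after Cyp3a16 and Cyp3a44, was Cyp11b2, the aldosterone synthase of the adrenal cortex, with 11.20, 8.75 and 7.95 in Acads-/- mice, against 7.73, 7.15 and 7.58 in Acads+/+ mice (log2 1.82, adjusted p = 0.808). It too lay above the filter only through 2 arrays, both of Acads-/- mice (11.20 on HF and 11.11 on LF diet). The unadjusted counts over both diets, on HF diet and on LF diet also hold Cyp2b9, which passed the filter only through its Acads-/- arrays. That on HF diet holds Cyp2d22 as well. On LF diet Cyp2b9 is also among the genes without overlap.

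The female-biased list held 7 genes, of which 4 were tested in liver. Their log2 differences between Acads-/- and Acads+/+ mice over both diets were 2.00 for Cyp2b9, 1.11 for Cyp3a16, 0.82 for Cyp3a44 and 0.04 for Cyp2a4, with a median of 0.97, against 0.00 over all probes tested. This median counts Cyp2b9, which passed the filter only through the group in which it was high. Cyp2b13 and Cyp3a41a, also on the list, were below the filter with -0.10 and 0.13. The single male-biased gene tested, Cyp2d9, had 0.11. On HF diet the summed Kupffer cell markers (6 of 6 genes with a probe) were 78226.5 to 118352 in Acads-/- mice, against 53367.2 to 76557.5 in Acads+/+ mice, and the blood and pancreatic acinar sums also did not overlap there. In the acinar list only Cela2a separated, while Cpa1 and Amy2a5 overlapped near background. No list separated the genotypes on LF diet, and the part of cell types in the genotype differences was not tested. Of the 7 heme supply and electron partner genes, 1 passed by unadjusted p over both diets: Alas1, the rate-limiting enzyme of heme synthesis, was 14.57 to 16.34 in Acads-/- mice and 13.27 to 15.97 in Acads+/+ mice (log2 1.33, adjusted p = 0.861). Of the 25 conjugating enzymes and 15 regulators, 0 passed.

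The promoters of the 2 genes with the lowest unadjusted p between genotypes are shown for comparison with those above, at chr7:26173159-26173408 on the plus strand for Cyp2b9 and chr5:145469724-145469973 on the minus strand for Cyp3a16. Capitals mark the motifs listed for Cyp1a2, Cyp2a4 and Cyp2f2. RefSeq's outer limit of these genes lies further upstream than the start used, so that the last 59 bases shown for Cyp2b9 and the last 17 for Cyp3a16 fall inside it.
Cyp2b9: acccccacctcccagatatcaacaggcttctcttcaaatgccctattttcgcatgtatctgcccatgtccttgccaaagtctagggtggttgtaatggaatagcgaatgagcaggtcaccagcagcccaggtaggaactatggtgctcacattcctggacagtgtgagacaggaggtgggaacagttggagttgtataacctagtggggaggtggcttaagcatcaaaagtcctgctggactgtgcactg
Cyp3a16: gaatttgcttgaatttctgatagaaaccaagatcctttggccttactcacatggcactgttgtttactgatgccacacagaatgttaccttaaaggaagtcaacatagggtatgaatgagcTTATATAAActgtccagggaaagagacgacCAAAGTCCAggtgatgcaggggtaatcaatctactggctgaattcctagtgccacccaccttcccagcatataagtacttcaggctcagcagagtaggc

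Cyp2b9 holds none of the motifs. Cyp3a16 holds an HNF4 site 99 to 91 bases before the start used, which 2 other members, Cyp2c70 and Cyp3a41a, also hold. Its letters TATAAA lie 126 to 121 bases before that start, further away than in Cyp1a2 and Cyp2a4, and overlap a Dbp and Tef type of site.

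The interaction of genotype and diet in liver gave 0 calls among the 39 members, against 0% of all probes, and 1 at an unadjusted p under 0.05 (2.56%, against 5.14%). This was Cyp3a13, a drug-metabolizing enzyme. It had 12.89, 12.90 and 13.18 in Acads-/- HF mice, 12.56, 12.22 and 12.49 in Acads-/- LF mice, 12.40, 12.53 and 12.62 in Acads+/+ HF mice and 12.73, 12.95 and 12.73 in Acads+/+ LF mice. HF diet was thus above LF diet in Acads-/- mice (0.57) and below it in Acads+/+ mice (-0.29), without overlap in either genotype, and the difference of the effects was 0.86 (standard error 0.26, adjusted p = 0.880 from limma). Below the filter, Cyp2ab1 stood out in 1 group, with 7.15 to 8.28 on 9 arrays and 10.08, 8.46 and 10.33 in Acads+/+ LF mice.

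In brain, all calls among P450 genes came from comparisons that hold the Acads+/+ HF arrays. Between genotypes on HF diet 5 of 17 genes tested were called (29.4%), against 34.9% of all probes, so the share of the members was near that of the array as a whole. Between diets in Acads+/+ mice 3 of 17 were called (17.6%), against 32.9%, and for the interaction 3 of 17 (17.6%), against 22.7%. These comparisons share the 3 Acads+/+ HF arrays. The 5 genes called between genotypes on HF diet include Cyp11a1, which lay above the signal filter only through those arrays. Between genotypes on LF diet 0 of 17 were called, against 0.0182% of all probes, and 0 passed by unadjusted p, against 1.97%. Between diets in Acads-/- mice 0 of 17 were called, against 0%, and 0 passed by unadjusted p, against 4.86%. These last 2 counts were 0 also when the Acads+/+ HF arrays were left out of the fit.

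Cyp2j11, a member of a subfamily of polyunsaturated fatty acid epoxygenases, had 14.73, 14.20 and 14.72 in Acads-/- HF mice, against 13.07, 12.00 and 12.66 in Acads+/+ HF mice. On LF diet it had 14.39, 14.64 and 14.53 in Acads-/- mice, against 14.80, 14.50 and 14.61 in Acads+/+ mice. The 3 Acads+/+ HF arrays lay below all other brain arrays. On HF diet it was thus 3.92-fold higher in Acads-/- than in Acads+/+ mice (log2 1.97, standard error 0.25, adjusted p = 0.000294 from limma). In Acads+/+ mice it was lower on HF than on LF diet (log2 -2.06, adjusted p = 0.000298), and the difference between genotypes was -0.12 on LF diet.

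Cyp46a1, which hydroxylates cholesterol in neurons and so lets it leave the brain, had 18.37, 18.54 and 18.26 in Acads-/- HF mice, against 18.99, 19.62 and 19.51 in Acads+/+ HF mice. On LF diet it had 18.41, 18.13 and 18.19 in Acads-/- mice, against 18.13, 18.20 and 18.14 in Acads+/+ mice. The 3 Acads+/+ HF arrays lay above all others. Between genotypes on HF diet it was lower in Acads-/- mice (log2 -0.98, standard error 0.17, adjusted p = 0.00148), and between diets in Acads+/+ mice it was higher on HF diet (log2 1.21, adjusted p = 0.000580). With arrays scaled to a common median the 2 values were -0.20 (adjusted p = 0.346) and 0.39 (adjusted p = 0.0831), so both calls were lost.

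The other 3 genes called on HF diet had less signal in Acads-/- mice than in Acads+/+ mice. Cyp4v3, a fatty acid hydroxylase, had 12.29, 11.64 and 12.14 in Acads-/- HF mice, against 12.65, 12.89 and 12.65 in Acads+/+ HF mice (log2 -0.71, adjusted p = 0.0114). It was also higher on HF than on LF diet in Acads+/+ mice (log2 0.84, adjusted p = 0.00566). Cyp11a1, the side-chain cleavage enzyme that starts steroid synthesis, had 9.34, 9.69 and 10.39 in Acads-/- HF mice, against 11.03, 11.14 and 11.53 in Acads+/+ HF mice (log2 -1.43, adjusted p = 0.0205). Cyp2d22, a drug-metabolizing enzyme also found in brain, had 10.84, 9.93 and 10.64 in Acads-/- HF mice, against 11.36, 12.12 and 11.54 in Acads+/+ HF mice (log2 -1.20, adjusted p = 0.00582). Neither Cyp11a1 nor Cyp2d22 was called between diets in Acads+/+ mice. Cyp11a1 lay above the signal filter only through the Acads+/+ HF arrays, the group in which it was high.

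**Figure D5:**
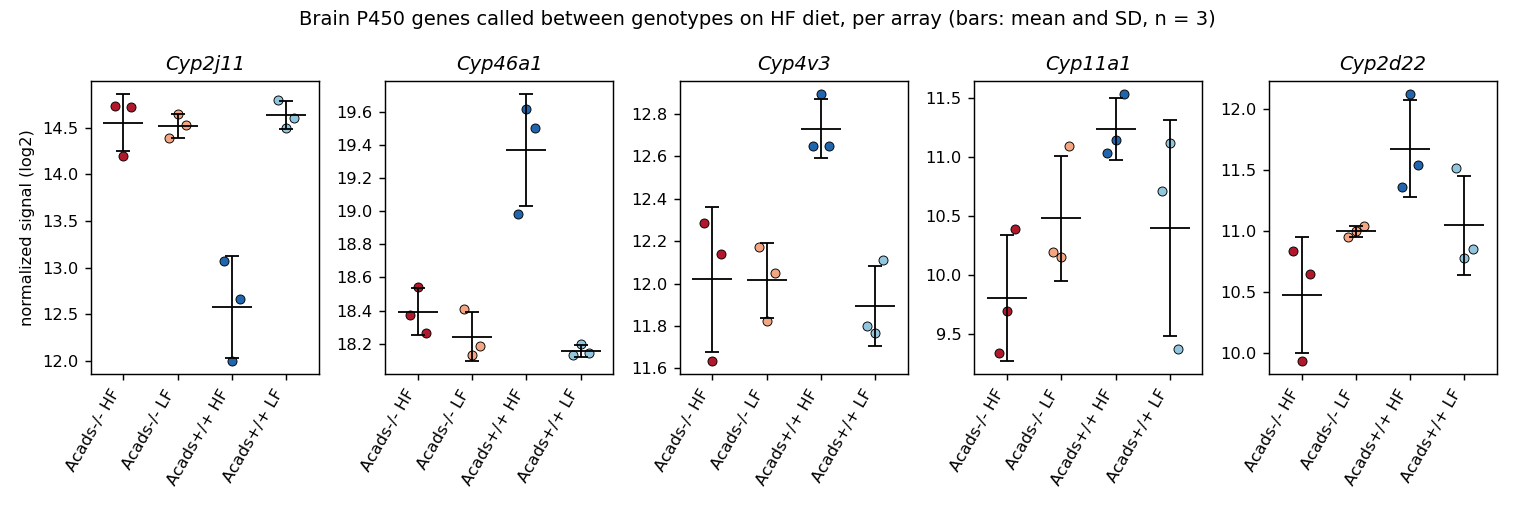
Log2 normalized signal of Cyp2j11, Cyp46a1, Cyp4v3, Cyp11a1 and Cyp2d22 on each brain array (points, 3 per group) with the group mean and SD. For Cyp2j11, Cyp46a1 and Cyp4v3 the 3 Acads+/+ HF arrays lie outside the range of the other 9, below it for Cyp2j11 and above it for Cyp46a1 and Cyp4v3.

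The Acads+/+ HF arrays that carry these calls also differed in summed markers of cell types, where the brightest gene of a list weighs most. Summed oligodendrocyte markers (3 of 5 genes with a probe) were 165250 to 268215 in Acads-/- HF mice, against 408685 to 797658 in Acads+/+ HF mice, and blood markers (2 of 3) were 377962 to 405579, against 71225.3 to 135801. Neuron markers (4 of 5) were 1052400 to 1161970 in Acads-/- HF mice, against 1245450 to 1295040 in Acads+/+ HF mice, and choroid plexus and endothelial sums did not overlap either. Single genes did not all follow the sums. Of the neuron genes, Nefl was higher in Acads+/+ HF mice (18.58 to 19.26, against 17.78 to 17.82 in Acads-/- HF mice). Syt1 was lower there (13.66 to 15.04, against 15.30 to 15.40), and Snap25 and Stmn2 overlapped. Mog and Mag overlapped in the oligodendrocyte list and Alas2 in the blood list. In the choroid plexus list Kl and Clic6 were higher in Acads+/+ HF mice, against the direction of its sum. Of the 9 brain lists, 5 separated the genotypes on HF diet and 0 on LF diet. The correlation of signal with the genomic span of the gene, computed within each array across genes, was -0.29 to -0.17 in Acads-/- HF mice, against 0.28 to 0.43 in Acads+/+ HF mice. With that trend removed, Cyp4v3 was no longer called between genotypes on HF diet (-0.42, adjusted p = 0.0829) or Cyp11a1 (-1.12, adjusted p = 0.0593). The part of the markers in these results was not tested.

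Of the other brain P450 genes above the filter, those of the Cyp2j and Cyp4f subfamilies and Cyp26b1 had no call. Cyp2j9 was 15.48 to 15.80, Cyp2j6 14.40 to 15.18 and Cyp4f14 13.83 to 14.16 over the 12 arrays, and Cyp26b1, which clears retinoic acid, was 13.66 to 14.49. Of the family 4 genes, Cyp4f13 and Cyp4f15 had 0.14 and -0.31 between genotypes on HF diet. Of 7 electron partner and heme supply genes, 2 were called higher and 3 lower in Acads-/- mice on HF diet. Fdx1, the ferredoxin that serves mitochondrial P450 enzymes such as Cyp11a1, was higher (log2 1.38), and Pgrmc1, a heme-binding partner of P450 enzymes, was lower (log2 -1.32). Of 12 regulators 0 were higher and 2 lower, and of 17 conjugating enzymes 8 were higher and 0 lower, beside the 34.9% of all probes called there. On LF diet 0 genes of these lists were called by limma.

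Some P450 genes of liver were highest on the same 2 brain arrays as the hepatocyte gene Alb. Array 17873 of the Acads-/- HF group and array 18017 of the Acads+/+ HF group had the highest Alb (14.66 and 16.27, against 9.59 to 12.86 on the other 10) and the highest Fgb (11.34 and 12.51, against 8.01 to 9.41). The same arrays had the highest Cyp2e1 (15.01 and 15.81, against 10.68 to 13.12), the highest Cyp3a44 (12.56 and 13.40, against 8.10 to 11.81) and the highest Cyp1a2 (10.93 and 11.13, against 7.87 to 10.42). Cyp2a4 followed, with 12.81 and 12.61 on these arrays, against 8.81 to 12.28. Of the 39 members above the liver filter, 9 had these as their highest 2 brain arrays, 14 had 1 of them among the highest 2, and 16 had neither. Cyp2d9, for example, was highest on array 17873 (11.46) and lowest on array 18017 (9.31), and Cyp2c29 was highest on array 17866 (13.49). Of the other 4 hepatocyte markers, Apoa1 and Fgb had both arrays highest, and Tat was highest on array 17956 (10.49). The origin of this signal was not tested. Without both arrays 5 members were still called between genotypes on HF diet, with Cyp2c29 in place of Cyp11a1 (-1.30, adjusted p = 0.0834).

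Among brain P450 genes below the filter, read from a fit over all probes, Cyp1b1 differed most between genotypes on HF diet. It had 10.43, 12.42 and 10.81 in Acads-/- HF mice, against 8.95, 8.93 and 9.09 in Acads+/+ HF mice (log2 2.23, adjusted p = 0.0122 from limma). Its levels were 8.65 to 10.02 in Acads-/- LF mice and 9.71 to 10.26 in Acads+/+ LF mice. Its interaction of genotype and diet was 2.72 (adjusted p = 0.0493). The other members below the filter with an adjusted p under 0.05 and a difference of at least 1.6-fold in that fit were Cyp4f18 between genotypes on HF diet (log2 -1.05, adjusted p = 0.0427) and Cyp2s1 between diets in Acads+/+ mice (log2 1.77, adjusted p = 0.0245). The share of all probes called in that fit was not computed. Above the filter it was 34.9% for genotype on HF diet, 32.9% for diet in Acads+/+ mice and 22.7% for the interaction. These calls are therefore not read as particular to P450 genes. The steroid enzymes Cyp17a1 and Cyp21a1 and the vitamin D gene Cyp24a1 stayed at 7.87 to 10.18 over all 12 brain arrays.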

How the data were processed

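Signal intensities were deposited by the authors per probe and array as extracted by the analyzer software, not normalized between arrays, together with log2 values that the authors had quantile-normalized within each tissue. The recomputed log2 values matched the deposited ones on all 24 arrays within their own group, with column medians of 8.62 in liver and 10.48 in brain. Names of the intensity columns give tissue, group and a number, and no column was left unmapped (0).

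Intensities of the 33012 probes were quantile-normalized over the 12 arrays of a tissue, raised to at least the 5th percentile (142 in liver, 235 in brain) and log2-transformed. A model of the 4 groups was fitted by limma 3.58.1 (R 4.3.3) to the 16506 probes whose mean signal lay above the median. Members below the filter come from a fit over all probes. The fit was checked on simulated data. Probe names come from the platform annotation (14411 probes with 1 symbol, 247 with several, of which 7 were P450 probes and were not used), and all 59 members matched RefSeq. Members and lists were chosen with earlier results of these data known. Named are members called in a comparison, a fixed list of well-known members, and liver members without overlap between groups at a fold change of at least 1.6; Cyp2a12, Cyp2ab1, Cyp2c70, Cyp2j9 and Cyp4f18 fall outside this rule and were chosen after their values were seen. Alternatives were other scalings, an offset of 500 before log2, other filters, array weights, the methods' t-test, fits on the compared groups alone, the authors' log2 values, a replicate block, removal of the trend with genomic span and arrays left out, of which leaving out brain arrays 17873 and 18017, or the Acads+/+ HF brain arrays, was added after seeing the data. The values are array signals, not read counts. With 3 arrays per group, p-values set the group differences against the spread between arrays within groups, which limma estimates over all 4 groups.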

Additional observations from a re-analysis of the deposited data

Results flagged for a closer look

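In brain, the difference between HF and LF diet itself differed between Acads-/- and Acads+/+ mice for 3 P450 genes by the interaction term of limma. For Cyp2j11 the diet difference was 0.03 in Acads-/- mice and -2.06 in Acads+/+ mice, and the interaction was 2.09 on the log2 scale (standard error 0.36, adjusted p = 0.00371). For Cyp46a1 it was 0.15 in Acads-/- mice and 1.21 in Acads+/+ mice, with an interaction of -1.06 (standard error 0.25, adjusted p = 0.0128). For Cyp4v3 it was 0.01 in Acads-/- mice and 0.84 in Acads+/+ mice, with an interaction of -0.83 (standard error 0.27, adjusted p = 0.0455). All 3 rest on the same 3 Acads+/+ HF arrays, and 22.7% of all probes were called for this interaction. With arrays scaled to a common median the interaction of Cyp46a1 was -0.18 (adjusted p = 0.606), and with the trend with genomic span removed that of Cyp4v3 was -0.54 (adjusted p = 0.147).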

How the results depend on the processing

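No result turned its direction under the alternatives run. For liver diet over both genotypes, 2 P450 genes were called, against 0 with median scaling, 4 with an offset of 500, 1 with no filter, 4 with the 25% of probes of highest signal, 1 with array weights, 6 by unadjusted p and 0 with the replicate block on the authors' log2 values (Cyp1a2 adjusted p = 0.0511, Cyp2a4 adjusted p = 0.116), and 1 to 2 with each array left out. Cyp1a2 kept a difference of 0.91 to 1.28 over its 23 alternatives. In Acads-/- liver 1 gene in place of 0, Cyp1a2, was called between diets with the offset, the stricter filter, array weights or the span trend removed. The methods' t-test without adjustment called 2 and 6 liver genes between diets in Acads-/- and Acads+/+ mice, and 2 and 2 between genotypes on HF and LF diet. By unadjusted p from limma there were 7 and 6 between diets, 5 and 3 between genotypes, 1 for the interaction and 5 for genotype over both diets, each in place of 0. In brain, genotype on HF diet gave 2 calls with the stricter filter and 0 by the adjusted t-test in place of 5, diet in Acads+/+ mice 5 with array weights in place of 3, and the interaction 5 by unadjusted p in place of 3. Leaving out each brain array gave 4 to 7 calls for genotype on HF diet, 3 to 4 for diet in Acads+/+ mice and 2 to 4 for the interaction. The causes were not tested. Samples that share a replicate number deviated together in 5 of 18 liver and 3 of 18 brain pairs (correlation over 0.1). Pairs of unlike number did so in 11 of 36 in liver and 4 of 36 in brain, so the numbers were not taken to pair the samples. The block also lost Cyp4v3 for the brain interaction (adjusted p = 0.0529 from limma). Median scaling moved the median of all liver probes by -0.33 for diet in Acads+/+ mice, 0.22 for the interaction, -0.21 for diet over both genotypes and -0.16 for genotype on LF diet. Low signal limits the members near the floor, such as Cyp7b1 and Cyp24a1 in liver.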
